A study of Mus musculus with 12 samples.

Results

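The use of V and J segments of the T cell receptor alpha locus was examined in CD4+ T cells with and without Rinl. The segments were the genes of the raw count table with a T cell receptor biotype whose names begin with Trav, Traj or Trac. They numbered 191 of 55487 genes: 130 V segments, 20 of them annotated as pseudogenes, 60 J segments, 9 of them annotated as pseudogenes, and the constant region gene Trac. All 191 lie on the plus strand of chromosome 14 (GRCm38) between 52427928 and 54224206, with the V segments upstream, the J segments between 54155005 and 54218842, and Trac at 54220521 to 54224206. A filter on low counts was passed by 94 V segments, 42 J segments and Trac. Of the other members, 10 had no count in any library and 44 had at most 105 counts over the 12 libraries. A member could pass the filter through 1 group alone.

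CD4+ T cells were sorted by flow cytometry from spleen and peripheral lymph nodes of Rinl-KO and WT mice. Effector cells lacked CD62L and had high CD44, and naive cells had CD62L and low CD44. The groups were KO effector, WT effector, KO naive and WT naive, with 3 libraries each. Rinl encodes an exchange factor for RAB5-type GTPases of endosomes, and the study addressed its function in CD4+ T cells. The altered part of Rinl, the strain and the age are not given in the labels. Whether libraries of a group stem from different animals is not stated either, so p-values measure the spread between libraries, which may be technical.

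During T cell development the RAG recombinase joins a V segment to a J segment, and the transcript is then spliced to Trac, so an alpha chain mRNA carries a single V and a single J. Most T cells have varied alpha chains. Natural killer T (NKT) cells, which recognise lipids on CD1d, use an invariant chain of Trav11 and Traj18 in the mouse, and mucosal-associated invariant T (MAIT) cells, which recognise vitamin metabolites on MR1, use Trav1 and Traj33. The older name Vα14 for the NKT chain refers to Trav11 and not to the Trav14 family. Part of the V cluster is duplicated in the mouse, and the copies carry the letters d and n in their names.

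The J segments of both invariant chains, and all J segments whose share was called in any comparison, are shown from GENCODE M21 (GRCm38), 5′ to 3′ on the plus strand. Capitals mark the signature of J regions, searched as a codon beginning with T, a glycine codon, any codon and the first 2 bases of a glycine codon, in the frame that leaves 1 base for the splice to Trac.
Traj18 (chr14:54200777-54200842): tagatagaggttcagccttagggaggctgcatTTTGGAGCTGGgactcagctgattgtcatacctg
Traj33 (chr14:54185358-54185414): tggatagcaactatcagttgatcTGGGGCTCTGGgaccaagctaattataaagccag
Traj9 (chr14:54209393-54209450): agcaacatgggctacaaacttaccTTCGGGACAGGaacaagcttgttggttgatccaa
Traj42 (chr14:54175773-54175836): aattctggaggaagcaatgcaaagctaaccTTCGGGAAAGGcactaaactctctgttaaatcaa
Traj14 (chr14:54205111-54205144): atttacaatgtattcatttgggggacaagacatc
Traj8 (chr14:54209918-54209954): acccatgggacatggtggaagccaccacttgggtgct
Traj14 and Traj8 carry no capitals because the signature was not found in them. On the plus strand, the only one searched, it was found in 47 of 60 J segments, that is in 45 of 51 annotated as genes and 2 of 9 annotated as pseudogenes. The 13 J segments without it held 8.85% ± 0.718 of J counts in KO effector, 8.16% ± 2.14 in WT effector, 8.36% ± 0.193 in KO naive and 7.74% ± 0.690 in WT naive libraries (SD, n = 3 each).

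The Trav11 copies are shown because they had the largest log2 fold changes of V use. The first 300 of 342 transcript bases are given, and capitals mark the 8 positions at which Trav11d, annotated as a gene, and Trav11n, annotated as a pseudogene, differ over all 342. The coordinates are those of the whole segments with their introns.
Trav11d (chr14:52824357-52824912): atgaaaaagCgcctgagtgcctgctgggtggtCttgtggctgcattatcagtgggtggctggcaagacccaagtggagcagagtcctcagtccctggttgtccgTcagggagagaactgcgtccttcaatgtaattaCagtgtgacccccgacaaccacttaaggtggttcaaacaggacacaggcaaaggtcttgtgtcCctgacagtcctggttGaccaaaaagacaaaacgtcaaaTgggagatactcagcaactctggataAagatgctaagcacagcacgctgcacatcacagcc
Trav11n (chr14:53135122-53135678): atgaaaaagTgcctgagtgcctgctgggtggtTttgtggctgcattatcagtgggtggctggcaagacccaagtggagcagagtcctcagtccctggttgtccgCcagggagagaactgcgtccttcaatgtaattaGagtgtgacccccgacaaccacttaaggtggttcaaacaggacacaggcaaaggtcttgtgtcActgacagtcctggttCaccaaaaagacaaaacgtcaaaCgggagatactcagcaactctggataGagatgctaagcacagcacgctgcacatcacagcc
The third copy, Trav11, was identical to Trav11d over all 342 bases, yet 2060 counts were assigned to Trav11d and 9 to Trav11 over the 12 libraries. Trav11n had 232. Among 128 V segments whose transcripts were compared, 20 such identical pairs were found. They held 33.6% of V counts, and in 10 of the 19 pairs with counts one copy had under 10% of the pair. Levels of single copies are therefore uncertain, and sums over a family are given beside them.

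Total counts ran from 11606300 to 24320200 per library, of which V segments took 3880 to 7235, J segments 549 to 1193 and Trac 5559 to 10941. Rinl had 45.8 to 49.4 CPM (counts scaled to TMM-normalised library size) in KO effector against 437 to 463 CPM in WT effector libraries, and 32.2 to 34.4 CPM in KO naive against 285 to 299 CPM in WT naive libraries. Cd4 had 935 to 1060 CPM over all 12 libraries, and all 4 naive markers fell and all 4 effector memory markers rose in effector against naive cells in both genotypes. Cd8b1, of the CD8 coreceptor, had 7.13 to 7.87 CPM in KO effector, 5.30 to 6.58 in WT effector, 19.4 to 21.4 in KO naive and 19.3 to 20.5 in WT naive libraries. Summed over 6 B cell markers, CPM were 12.9 to 17.4 in KO effector, 10.2 to 15.5 in WT effector, 4.15 to 5.74 in KO naive and 2.05 to 3.33 in WT naive libraries. Over 4 myeloid markers they were 16.9 to 28.5, 4.24 to 23.0, 13.5 to 20.3 and 4.52 to 12.4 in the same order. The part of these cells in V and J use was not tested.

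Trac had more mRNA in effector than in naive cells of both genotypes. Its level was 504 to 527 CPM in KO effector against 431 to 444 CPM in KO naive libraries, and 503 to 528 CPM in WT effector against 460 to 477 CPM in WT naive libraries, without overlap. The log2 fold change was 0.25 ± 0.041 (adjusted p = 1.6e-05) in KO and 0.14 ± 0.041 (adjusted p = 0.0047) in WT (SE; edgeR quasi-likelihood test). KO against WT gave 0.01 ± 0.041 (adjusted p = 0.94) in effector and -0.09 ± 0.041 (adjusted p = 0.37) in naive cells. Summed V counts per Trac count were 0.621 ± 0.0277 in KO effector, 0.618 ± 0.00461 in WT effector, 0.706 ± 0.00391 in KO naive and 0.707 ± 0.0135 in WT naive libraries (SD, n = 3 each). Every effector library lay below every naive one in this ratio. J counts per Trac count, at 0.112 ± 0.00790, 0.106 ± 0.0102, 0.109 ± 0.00214 and 0.103 ± 0.0103, overlapped between the groups.

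Effector cells used V segments differently from naive cells in both genotypes. By share of V counts, 5 of 94 V segments rose and 12 fell in KO effector against KO naive cells, where 31.5% of all genes tested rose and 26.8% fell. In WT effector against WT naive cells 6 rose and 16 fell, where 30.2% and 25.9% of all genes did. Of these, 3 rose and 7 fell in both genotypes, which is 58.8% of the V calls in KO and 45.5% of those in WT. The V segments that were not called had log2 fold changes between -0.56 and 0.53 in KO and between -0.57 and 0.75 in WT. A segment's log2 fold change had a median SE of 0.22 in KO and 0.23 in WT. With the Trav11 copies and Traj18 left out of the sums, an alternative chosen after seeing the data, V and J segments together gave 11 higher and 9 lower in KO and 11 higher and 12 lower in WT, against 9 and 12 in KO and 8 and 16 in WT with them.

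The NKT segment Trav11 had the largest rise. Its copies summed to 6.72%, 4.80% and 5.25% of V counts in KO effector libraries, against 0.332%, 0.514% and 0.316% in KO naive libraries. In WT effector libraries they summed to 7.30%, 10.1% and 8.59%, against 0.326%, 0.560% and 0.258% in WT naive libraries. Every effector library lay far above every naive one. The log2 fold change of the family's share was 3.83 ± 0.22 (adjusted p = 1.1e-10) in KO and 4.42 ± 0.22 (adjusted p = 1.9e-11) in WT. The shares rest on 209 to 344 counts in KO effector, 374 to 453 in WT effector, 19 to 37 in KO naive and 10 to 36 in WT naive libraries, and their Wilson 95% intervals reached at most 0.927 percentage points from the value.

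Trav11d and Trav11n both rose. Trav11d took 4.95% ± 0.835 of V counts in KO effector against 0.272% ± 0.0655 in KO naive libraries (log2 fold change 4.16 ± 0.21, adjusted p = 6.8e-13). In WT it took 7.93% ± 1.17 in effector against 0.317% ± 0.135 in naive libraries (4.56 ± 0.20, adjusted p = 1.1e-13; SD, n = 3 each). Trav11n rose by 2.43 ± 0.35 (adjusted p = 2.1e-06) on the log2 scale in KO and by 3.31 ± 0.41 (adjusted p = 2.0e-07) in WT.

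Traj18, the J segment of the same chain, also rose. It held 4.97%, 3.94% and 3.78% of J counts in KO effector against 2.44%, 2.83% and 1.19% in KO naive libraries. The WT effector libraries had 5.21%, 8.57% and 6.17%, against 1.89%, 1.41% and 1.46% in WT naive libraries. Effector and naive libraries did not overlap in either genotype. The log2 fold change was 0.95 ± 0.27 (adjusted p = 0.0044) in KO and 2.01 ± 0.29 (adjusted p = 2.7e-06) in WT. These shares rest on few counts, 25 to 52 in KO effector, 49 to 58 in WT effector, 11 to 32 in KO naive and 8 to 19 in WT naive libraries, and their intervals reached up to 2.37 percentage points.

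**Figure D1:**
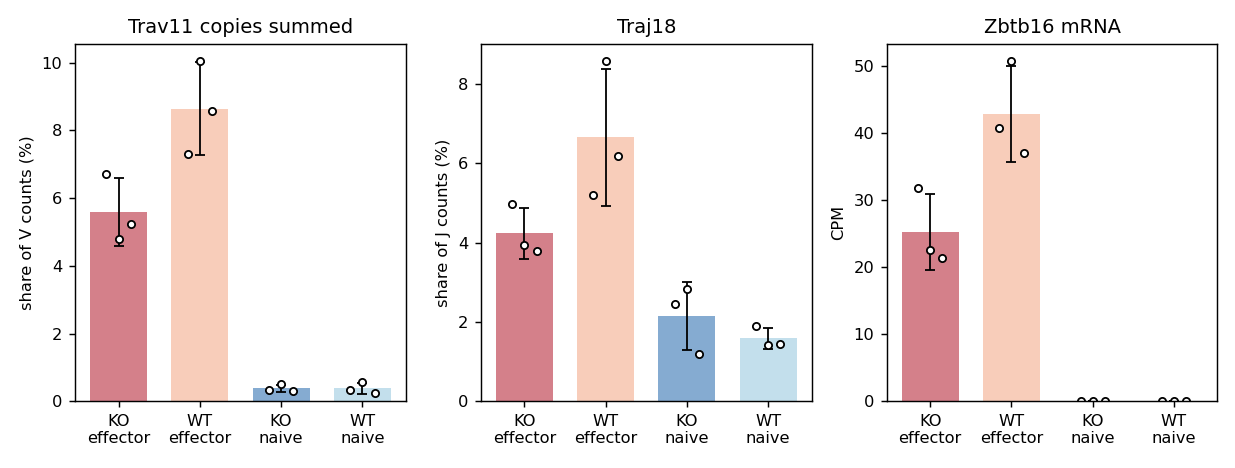
Share of the Trav11 copies among V counts (percent), share of Traj18 among J counts (percent) and level of Zbtb16 (CPM) in the 4 groups, with bars for means of 3 libraries, whiskers for SD and points for libraries. For Trav11, KO effector libraries lie between 4.80% and 6.72%, WT effector libraries between 7.30% and 10.1%, and naive libraries at 0.560% or lower.

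The share of Trav11 was lower in KO effector than in WT effector cells. The ranges of 4.80% to 6.72% in KO effector and 7.30% to 10.1% in WT effector libraries did not overlap. Of 94 V segments, 2 fell by share and none rose, where 1.72% of all genes tested fell and 1.45% rose. One was Trav11d, at 5.88%, 4.27% and 4.70% in KO effector against 6.79%, 9.13% and 7.87% in WT effector libraries (-0.68 ± 0.13, adjusted p = 0.0067). Trav11n, at 0.821%, 0.500% and 0.528% in KO effector against 0.507%, 0.847% and 0.701% in WT effector libraries, overlapped (-0.15 ± 0.27, adjusted p = 0.85). In bulk libraries, fewer cells with a chain and less of its mRNA per cell cannot be told apart.

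Summed as a family, Trav11 had -0.63 ± 0.15 (adjusted p = 0.028) in KO against WT effector cells. It was the 1 family that fell of 19 tested, and none rose, where 1.72% of all genes of that fit fell and 1.47% rose. Per 1000 Trac counts there were 34.5 ± 4.58 Trav11 counts in KO effector and 53.4 ± 8.69 in WT effector libraries (SD, n = 3 each). The family's call was lost without KO effector library 2 (adjusted p = 0.14) or 3 (0.079) and without WT effector library 2 (0.11) or 3 (0.095). It was also lost with only the groups compared in the fit (0.053). Its log2 fold changes were -0.79 to -0.51 over all libraries left out in turn, and its adjusted p ran from 5.2e-08 to 0.14 over 19 alternatives. Trav11d lost its call without KO effector library 2 (adjusted p = 0.0501).

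Traj18 had -0.62 ± 0.24 (adjusted p = 0.19) in KO against WT effector cells and so did not pass. Its ranges of 3.78% to 4.97% in KO and 5.21% to 8.57% in WT effector libraries did not overlap. Of 42 J segments tested, 3 lay higher and 1 lower by share without overlap in KO effector libraries, and of 94 V segments 8 and 3. Between KO and WT naive libraries, where none was called, 4 J segments lay higher and 2 lower without overlap, and 5 and 4 V segments. The share of all genes without overlap was not determined, so no result is read from these counts or from the ranges of Traj18. Between KO and WT effector cells edgeR called no J segment by share, with 1 of 42 at an unadjusted p under 0.05. DESeq2 called 2 V and J segments together, which were Trav11d and Trav14-2, and so no J segment. In naive cells KO against WT gave -0.03 ± 0.35 (adjusted p = 0.99) for the Trav11 family and 0.44 ± 0.33 (adjusted p = 0.67) for Traj18. The difference between the KO effects in effector and naive cells did not pass either, at -0.60 ± 0.38 (adjusted p = 0.68) for the family and -1.05 ± 0.41 (adjusted p = 0.41) for Traj18.

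Other mRNAs of NKT cells differed between the same libraries. Zbtb16, the transcription factor PLZF that directs NKT cell development, had 31.8, 22.6 and 21.3 CPM in KO effector against 40.7, 50.7 and 37.0 CPM in WT effector libraries, without overlap (-0.75 ± 0.15, adjusted p = 0.024), and at most 0.0850 CPM in any naive library. Klrb1c, the NK1.1 receptor, had 51.0 to 62.8 CPM in KO effector and 70.5 to 82.4 CPM in WT effector libraries (-0.47 ± 0.074, adjusted p = 7.6e-04). The receptor Klrk1 (-0.53 ± 0.12, adjusted p = 0.037) and the chemokine Xcl1 (-0.69 ± 0.15, adjusted p = 0.013) fell as well, so that 4 of 6 NKT markers fell and none rose, where 3.16% of all genes were called by level. Their median log2 fold change was -0.50, against 0.0022 for all genes, and Cd160 (-0.32, adjusted p = 0.16) and Slamf6 (0.13, adjusted p = 0.27) did not pass. Summed CPM of the 6 were 548 to 613 in KO effector, 601 to 631 in WT effector, 227 to 251 in KO naive and 211 to 252 in WT naive libraries. Slamf6 alone made up most of each sum. It averaged 377 CPM in KO effector, 344 in WT effector, 237 in KO naive and 229 in WT naive libraries. Summed CPM of 4 effector memory markers, of which 2 fell in KO against WT effector cells, were 1106 to 1218 in KO effector and 1387 to 1517 in WT effector libraries. The part of either in the Trav11 difference was not tested.

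The MAIT segments were not called in any of the 5 comparisons. Trav1 held 0.235%, 0.214% and 0.352% of V counts in KO effector and 0.215%, 0.343% and 0.265% in WT effector libraries. It held 0.401%, 0.333% and 0.366% in KO naive and 0.310%, 0.187% and 0.438% in WT naive libraries, so the groups overlapped. Traj33 held 1.33% ± 0.317 of J counts in KO effector, 1.58% ± 0.945 in WT effector, 1.10% ± 0.198 in KO naive and 1.01% ± 0.583 in WT naive libraries (SD, n = 3 each). Effector against naive cells gave -0.51 ± 0.32 (adjusted p = 0.19) in KO and -0.13 ± 0.35 (adjusted p = 0.78) in WT for Trav1, and 0.30 ± 0.42 (adjusted p = 0.56) in KO and 0.56 ± 0.44 (adjusted p = 0.30) in WT for Traj33.

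The Trav14 family had the largest fall in percentage points of V counts in effector against naive cells. It held 13.2%, 12.9% and 13.1% of V counts in KO effector against 20.9%, 20.2% and 20.5% in KO naive libraries. For WT the values were 12.7%, 12.9% and 12.9% in effector and 20.8%, 21.8% and 19.6% in naive libraries. The 6 effector values lay close together and below every naive value. The log2 fold change was -0.65 ± 0.052 (adjusted p = 1.2e-10) in KO and -0.70 ± 0.053 (adjusted p = 6.1e-11) in WT. KO against WT gave 0.03 ± 0.055 (adjusted p = 0.88) in effector and -0.02 ± 0.05 (adjusted p = 0.93) in naive cells.

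Most segments of the family fell. Of 8 tested, 7 fell in KO and 6 in WT effector against naive cells, where 26.8% and 25.9% of all genes tested fell. The log2 fold changes of the 8 lay between -1.0 and -0.31 in KO and between -1.21 and -0.26 in WT. Trav14d-1 and Trav14n-1 are identical in sequence, as are Trav14d-2 and Trav14n-2, so the segments are not separate observations. Trav14d-1 held 2.72% ± 0.374 of V counts in KO effector against 4.64% ± 0.104 in KO naive libraries (-0.75 ± 0.10, adjusted p = 1.0e-06). In WT its share was 2.17% ± 0.0682 in effector against 4.67% ± 0.418 in naive libraries (-1.12 ± 0.11, adjusted p = 5.4e-09; SD, n = 3 each). Its identical copy Trav14n-1 fell by 0.62 ± 0.25 (adjusted p = 0.037) in KO and by 1.21 ± 0.29 (adjusted p = 8.4e-04) in WT. Trav14-1, Trav14n-2 and Trav14n-3 also fell in both genotypes, with -1.0, -0.79 and -0.35 in KO and -0.74, -0.84 and -0.54 in WT. Without KO effector library 1, Trav14n-3 did not pass in KO (adjusted p = 0.054).

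Trav14-2 was the other V segment called between KO and WT effector cells. It held 1.60%, 1.20% and 1.53% of V counts in KO effector against 1.83%, 2.29% and 2.22% in WT effector libraries, without overlap (-0.57 ± 0.15, adjusted p = 0.035). In KO naive libraries it held 2.70%, 2.14% and 2.43%, and in WT naive libraries 2.55%, 2.63% and 2.40%. Effector against naive cells gave -0.76 ± 0.14 (adjusted p = 5.3e-05) in KO and -0.26 ± 0.14 (adjusted p = 0.10) in WT, and the difference between these did not pass (-0.50 ± 0.20, adjusted p = 0.41). The call between KO and WT effector cells was lost without KO effector library 2 (adjusted p = 0.26), KO naive library 3 (0.0511), WT effector library 2 (0.14) or WT effector library 3 (0.13). It was also lost with only the groups compared in the fit (0.12). Trav14-3 had -0.31 ± 0.16 (adjusted p = 0.11) in KO and -0.76 ± 0.18 (adjusted p = 6.8e-04) in WT effector against naive cells.

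Among 19 V families tested in effector against naive cells, 2 rose and 3 fell in KO, where 31.7% of all genes of that fit rose and 26.9% fell. In WT, 3 rose and 3 fell, where 30.3% and 26% did. Trav4 rose in both genotypes. It held 8.97%, 9.17% and 11% of V counts in KO effector against 7.28%, 7.15% and 7.94% in KO naive libraries (0.37 ± 0.08, adjusted p = 3.0e-04). WT effector libraries had 9.07%, 7.92% and 8.55%, against 6.98%, 7.33% and 6.60% in WT naive libraries (0.28 ± 0.084, adjusted p = 0.0055). Its segment Trav4-4-dv10, whose name records that it can also serve the delta chain, rose by 0.51 ± 0.13 (adjusted p = 0.0014) in KO and by 0.41 ± 0.14 (adjusted p = 0.013) in WT. The WT call of that segment was lost without WT effector library 3 (adjusted p = 0.079) or WT naive library 3 (0.053).

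Trav15, a family with members that the delta chain can also use, fell in both genotypes. It held 1.29%, 0.943% and 1.23% of V counts in KO effector against 1.92%, 1.97% and 2.19% in KO naive libraries (-0.83 ± 0.19, adjusted p = 5.0e-04). Among WT libraries it held 1.62%, 0.778% and 1.36% in effector against 1.86%, 2.30% and 2.32% in naive cells (-0.76 ± 0.19, adjusted p = 0.0014). Effector and naive libraries did not overlap in either genotype. Trdc, the delta constant region, had 5.56 ± 0.461 CPM in KO effector against 10.5 ± 0.930 CPM in KO naive libraries (-0.91 ± 0.16, adjusted p = 4.4e-05), and 6.67 ± 1.98 CPM in WT effector against 10.6 ± 1.70 CPM in WT naive libraries (-0.66 ± 0.16, adjusted p = 0.0013; SD, n = 3 each). Trdc was the 1 of 8 tested markers of MAIT and gamma-delta T cells that fell in effector against naive cells, and the other 7 rose in both genotypes, where 31.6% of all genes rose by level in KO and 30.2% in WT. Among them were the gamma chain constant regions, with Trgc1 at 20.9 ± 3.11 CPM in KO effector against 1.16 ± 0.271 CPM in KO naive libraries (4.16 ± 0.16, adjusted p = 8.8e-17). Trgc2, a close copy of Trgc1 from which its counts are not surely told apart, rose by 5.43 ± 0.15 (adjusted p = 1.5e-18) and Trgc4 by 4.70 ± 0.20 (adjusted p = 3.1e-13) in KO, and the 3 also rose in WT, by 4.95, 6.30 and 5.43. Summed CPM of the 10 listed markers were 465 to 551 in KO effector, 436 to 469 in WT effector, 18.1 to 20.2 in KO naive and 16.4 to 19.4 in WT naive libraries, and Il17a and Il23r had no count in naive libraries. Most of the effector sums came from 1 gene, Maf. It averaged 371 CPM in KO effector and 279 CPM in WT effector libraries, where the sums averaged 504 and 453 CPM. The part of delta chain transcripts or of gamma-delta T cells in the Trav15 fall was not tested. With the V segments of a Dv name left out, Trav15 had -0.42 ± 0.22 in KO (adjusted p = 0.11). In WT its call was kept in all 20 alternatives, that one included, with an adjusted p of at most 0.012. Leaving out Dv names kept Trav15n-1 and Trav15n-2, which are identical in sequence to Trav15d-1-dv6d-1 and Trav15d-2-dv6d-2. That alternative therefore cannot separate the sequences that the delta chain can use from the others.

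Other families moved less. Trav6 held 13.4% ± 0.611 of V counts in KO effector, 13.4% ± 0.629 in WT effector, 13.4% ± 0.60 in KO naive and 13.0% ± 0.959 in WT naive libraries (SD, n = 3 each). Trav9 held 9.19% ± 0.632 in KO effector against 10.3% ± 0.276 in KO naive libraries (-0.16 ± 0.066, adjusted p = 0.045), a call lost in 12 of 20 alternatives, and had -0.13 ± 0.067 (adjusted p = 0.094) in WT. Without KO effector library 1 or 3, or KO naive library 1, 2 or 3, or WT naive library 1 or 3, the adjusted p of Trav9 in KO was 0.20, 0.095, 0.079, 0.14, 0.053, 0.051 and 0.052. Trav7 had 0.13 ± 0.07 (adjusted p = 0.11) in KO and rose in WT (0.21 ± 0.072, adjusted p = 0.016), a call lost without WT effector library 3 (0.18) or WT naive library 1 (0.064). Trav8 had 0.08 ± 0.11 (adjusted p = 0.55) in KO and fell in WT (-0.32 ± 0.12, adjusted p = 0.024), and the difference between these did not pass (0.40 ± 0.16, adjusted p = 0.43). Its WT call was lost without WT effector library 2 (0.090) or 3 (0.068) or WT naive library 1 (0.13). With the Trav11 copies and Traj18 left out of the sums, the Trav8 call in WT was lost (-0.19, adjusted p = 0.16), and so was that of Trav9 in KO (-0.08, adjusted p = 0.30). Trav7 then also passed in KO (0.21, adjusted p = 0.012), as it did without KO effector library 1 (0.19, adjusted p = 0.032), and had a larger value in WT (0.33, adjusted p = 3.2e-04). Trav6 passed in WT under that alternative (0.17, adjusted p = 0.032).

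**Figure D2:**
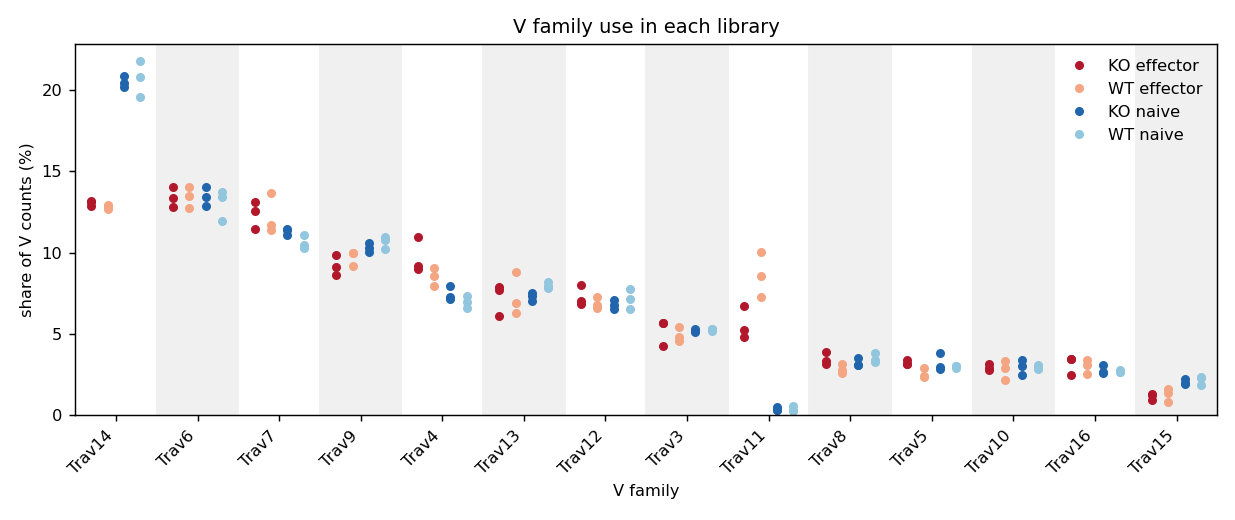
Share of V counts (percent) taken by each of the 14 V families with a mean share of at least 1%, with 1 point per library and the groups in the order KO effector, WT effector, KO naive, WT naive within a family. Trav14 lies at 12.7% to 13.2% in effector and 19.6% to 21.8% in naive libraries, and Trav11 lies higher in effector than in naive libraries.

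Single V segments of these and other families also changed. Trav13-5 held 0.0586%, 0.0571% and 0.0502% of V counts in KO effector against 0.332%, 0.292% and 0.349% in KO naive libraries (-2.49 ± 0.46, adjusted p = 5.7e-05). WT effector libraries had 0.156%, 0.0229% and 0.0379%, against 0.261%, 0.265% and 0.258% in WT naive libraries (-1.79 ± 0.47, adjusted p = 0.0024). All effector libraries lay below all naive ones, with WT effector library 1 the highest of them, and without that library the WT value was -2.99, adjusted p = 1.4e-04. The effector shares of Trav13-5 are of 3981 to 7000 V counts in KO and 4368 to 5276 in WT libraries. They therefore rest on very few counts each. Trav15-1-dv6-1 fell by 1.5 ± 0.34 (adjusted p = 5.8e-04) in KO and by 1.03 ± 0.32 (adjusted p = 0.0092) in WT, where the adjusted p without WT effector library 2 was 0.057. Trav8d-1 had -0.15 ± 0.19 (adjusted p = 0.54) in KO and fell in WT (-0.95 ± 0.21, adjusted p = 5.0e-04), and the difference between these did not pass (0.80 ± 0.29, adjusted p = 0.35).

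Smaller rises were seen in segments of Trav7 and Trav12. Trav7d-4 had 0.26 ± 0.13 (adjusted p = 0.097) in KO and rose in WT (0.57 ± 0.14, adjusted p = 0.0014). Trav7-3 rose in KO (0.48 ± 0.18, adjusted p = 0.023), a call lost without KO effector library 2 (0.069) or KO naive library 3 (0.10). Trav12-2 rose in KO (0.34 ± 0.14, adjusted p = 0.036), a call lost in 6 of 20 alternatives, among them those without KO effector library 2 (0.15) or 3 (0.057) and KO naive library 1 (0.098) or 3 (0.11). Trav7-6 held 0.780%, 0.824% and 1.48% of V counts in WT effector against 0.636%, 0.514% and 0.696% in WT naive libraries (0.77 ± 0.25, adjusted p = 0.011). Trav7-4 held 1.64%, 2.04% and 3.56% in WT effector against 1.71%, 1.79% and 1.57% in WT naive libraries (0.51 ± 0.21, adjusted p = 0.044). WT effector library 3 was the highest for both, and without it their adjusted p was 0.19 for Trav7-6 and 0.61 for Trav7-4. Trav7-6 also lost its call without WT naive library 2 (0.062), and Trav7-4 lost its call in 11 of 20 alternatives, including each library left out except WT effector library 1 or 2 (adjusted p of at least 0.053). With the Trav11 copies and Traj18 left out, Trav7d-4 passed in KO as well (0.34, adjusted p = 0.031) and Trav12-2 in WT (0.34, adjusted p = 0.045).

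**Figure D3:**
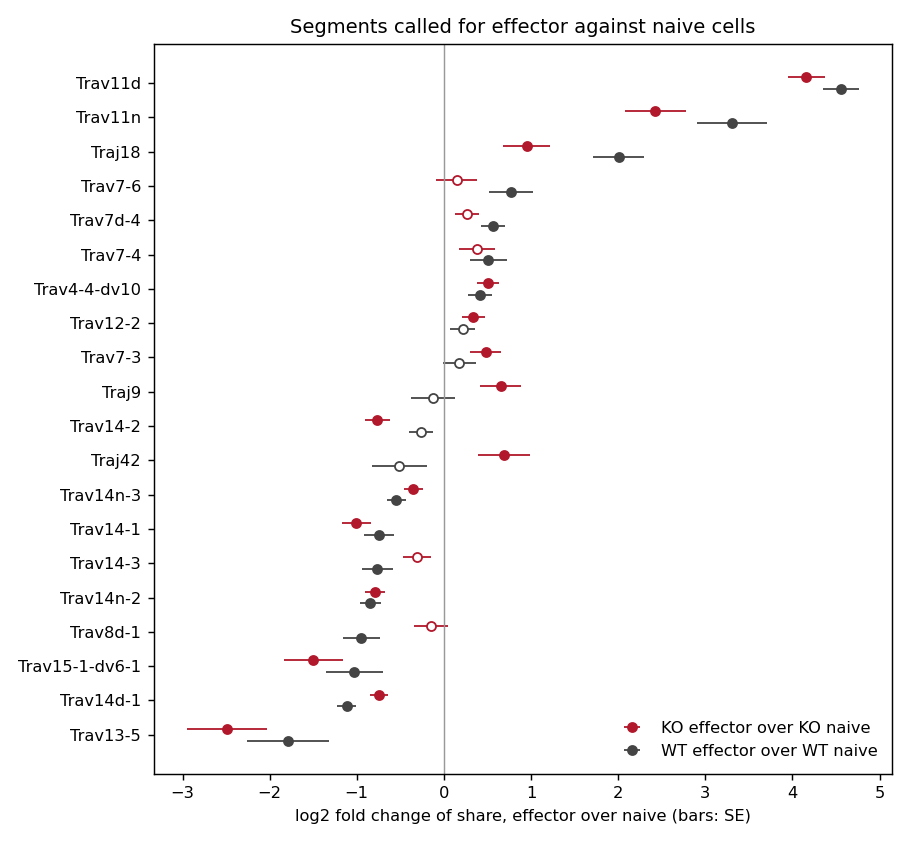
Log2 fold change of share, effector over naive, for the 20 segments named by rule among those called in KO or WT, with bars for SE, filled points for an adjusted p of at most 0.05, open points for the others, and KO above WT. Trav11d, Trav11n and Traj18 lie right of zero in both genotypes, and the Trav14 segments lie left of zero in both.

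Fewer J than V segments were called, of fewer tested and on fewer counts. A J segment's log2 fold change had a median SE of 0.33 in KO and 0.34 in WT, against 0.22 and 0.23 for V segments. By share of J counts, 4 of 42 J segments rose in KO effector against KO naive cells and 2 in WT, where 31.5% and 30.2% of all genes rose. None fell by edgeR, where 26.8% of all genes fell in KO and 25.9% in WT. Of the 42, 6 in KO and 2 in WT had an unadjusted p under 0.05. DESeq2 called 14 V and J segments together in KO, 5 higher and 9 lower, and 19 in WT, 8 higher and 11 lower. With each library left out in turn, 1 to 5 J segments were called in KO and 1 to 4 in WT. In KO the count was 1 without KO naive library 2, and 2 without KO naive library 1 or 3 or WT naive library 2. In WT it was 1 without WT naive library 3 or WT effector library 3, and 4 without WT effector library 2. Traj18 was the 1 J segment called in both genotypes, 25% of the J calls in KO and 50% of those in WT. J segments that were not called had log2 fold changes between -0.71 and 0.71 in KO and between -0.62 and 0.56 in WT.

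Besides Traj18, Traj9, Traj42 and Traj8 rose in KO, and Traj14 in WT. Traj9 held 3.63%, 3.35% and 3.48% of J counts in KO effector against 2.17%, 2.21% and 2.27% in KO naive libraries, without overlap (0.65 ± 0.24, adjusted p = 0.022). WT libraries had 2.87%, 2.71% and 2.55% in effector against 3.79%, 2.59% and 2.19% in naive cells (-0.13 ± 0.25, adjusted p = 0.70), and the difference between these did not pass (0.78 ± 0.35, adjusted p = 0.49). The Traj9 call was lost in 5 of 20 alternatives. These were the fits without KO effector library 1 (adjusted p = 0.064), KO naive library 1 (0.056) or KO naive library 2 (0.053), the DESeq2 Wald test (0.076) and no filter on low counts (0.052). Traj42 held 2.10%, 2.10% and 2.72% in KO effector against 1.36%, 1.33% and 1.52% in KO naive libraries (0.69 ± 0.30, adjusted p = 0.049), a call lost in 12 of 19 alternatives, including each library left out except WT effector library 2 or 3 (adjusted p up to 0.13). Traj8 held 1.14% ± 0.379 in KO effector against 0.444% ± 0.184 in KO naive libraries (1.26 ± 0.53, adjusted p = 0.046). Traj14 held 1.33% ± 0.455 in WT effector against 0.450% ± 0.259 in WT naive libraries (1.44 ± 0.48, adjusted p = 0.014; SD, n = 3 each). Traj8 and Traj14 are the segments shown above without the J signature. Both averaged fewer than 20 counts per library, in effector as in naive cells of the genotype where they were called. Their calls therefore rest on few counts, and they were not followed over the alternatives.

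The 5 J segments with the largest mean share did not pass in any comparison, although Traj31 passed under some alternatives. Traj31 held 4.02% ± 0.672 in KO effector against 5.73% ± 0.355 in KO naive libraries (-0.53 ± 0.23, adjusted p = 0.051), and 3.82% ± 1.76 in WT effector against 4.89% ± 0.356 in WT naive libraries (-0.41 ± 0.25, adjusted p = 0.18; SD, n = 3 each). It passed in 5 of 20 alternatives in KO, with adjusted p between 0.024 and 0.043, 3 of them without KO effector library 3 or WT effector library 2 or 3. In WT it passed without WT effector library 2 (-0.76, adjusted p = 0.013), and without WT effector library 3 it had -0.12, adjusted p = 0.71. In KO effector against KO naive cells, Traj2, Traj23, Traj37 and Traj27 had log2 fold changes of 0.09, -0.39, -0.41 and -0.02. In WT they had -0.28, 0.05, 0.06 and -0.14. Of the V segments with large mean shares, Trav6n-7 had 0.02 ± 0.11 in KO and 0.21 ± 0.11 in WT, and Trav9-2 had -0.09 ± 0.13 in KO and -0.24 ± 0.13 in WT, and neither was called. With the Trav11 copies and Traj18 left out, Trav6n-7 passed in WT (0.33, adjusted p = 0.014), and without WT effector library 2 Trav9-2 did (-0.37, adjusted p = 0.022).

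**Figure D4:**
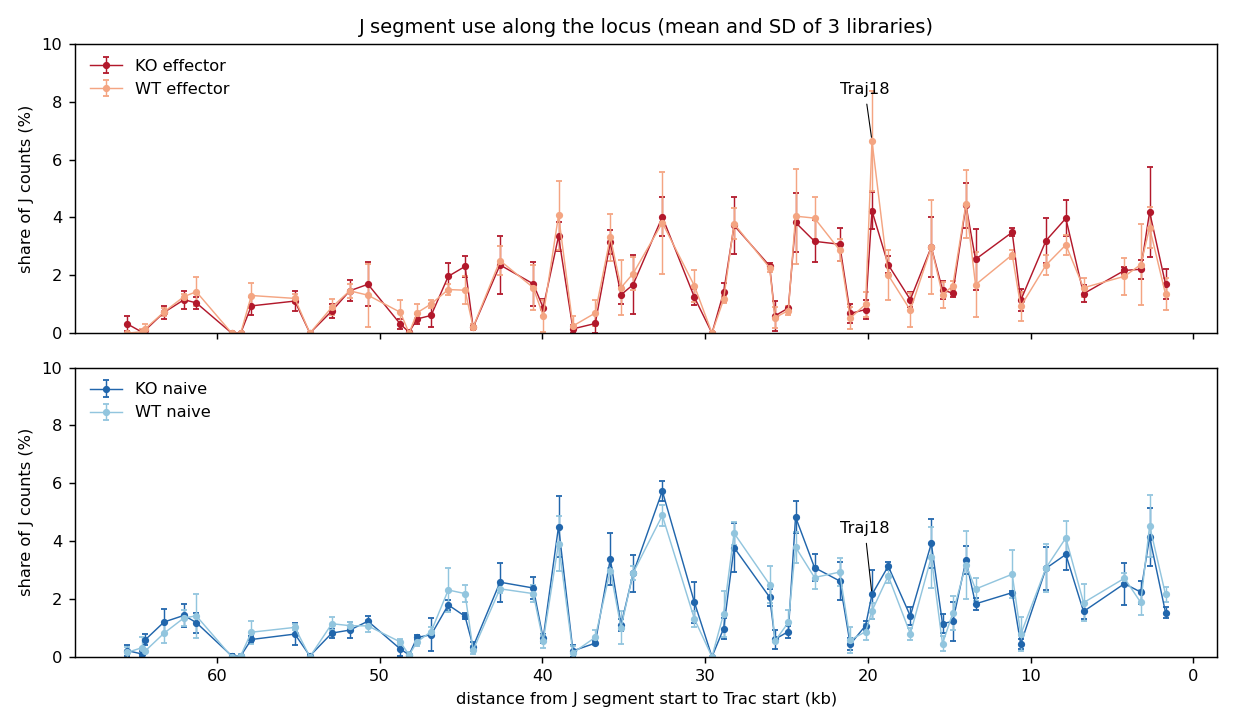
Share of J counts (percent) against distance from the start of a J segment to that of Trac (kb), with the effector groups in the upper and the naive groups in the lower panel, points for means and whiskers for SD of 3 libraries. Traj18 averages 4.23% in KO effector and 6.65% in WT effector libraries, and 2.15% in KO naive and 1.59% in WT naive libraries.

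Position along the locus was described without a test. Weighted by counts, V segments lay 953 ± 5.51 kb from Trac in KO effector, 954 ± 7.68 kb in WT effector, 938 ± 1.53 kb in KO naive and 934 ± 2.61 kb in WT naive libraries (SD, n = 3 each). J segments lay 25.4 ± 0.599, 26.3 ± 1.11, 26.4 ± 0.289 and 26.1 ± 0.498 kb from it. The 20 J segments nearest to Trac, Traj21 to Traj1, held 48.6% ± 1.76 of J counts in KO effector, 45.9% ± 3.66 in WT effector, 43.6% ± 1.33 in KO naive and 44.5% ± 1.27 in WT naive libraries. The 20 farthest, Traj61 to Traj42, held 15.1% ± 0.830, 15.2% ± 2.49, 14.1% ± 1.26 and 15.9% ± 0.805 in that order.

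Breadth of use was described by the effective number of segments, the number of equally used segments that would give the same chance of drawing the same segment again. For V segments it was 58.7 ± 1.35 in KO effector, 50.1 ± 4.17 in WT effector, 60.0 ± 0.563 in KO naive and 59.3 ± 2.08 in WT naive libraries (SD, n = 3 each). The WT effector libraries, at 46.3 to 54.5, lay below all others. Without the Trav11 copies the values were 61.4 ± 1.92, 61.3 ± 1.38, 59.6 ± 0.672 and 58.9 ± 2.20, and WT effector libraries no longer stood apart. The effective number of V families was 11.2 ± 0.178 in KO effector and 11.1 ± 0.389 in WT effector, against 9.44 ± 0.222 in KO naive and 9.44 ± 0.155 in WT naive libraries. For J segments it was 37.5 ± 1.14 in KO effector, 35.3 ± 3.77 in WT effector, 36.2 ± 0.782 in KO naive and 38.0 ± 1.09 in WT naive libraries.

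Effector libraries of a group differed more from each other than naive ones did. The chi-square of V counts among the 3 libraries of a group, which is near 1 per degree of freedom under sampling noise alone, was 2.00 per degree of freedom in KO effector, 2.34 in WT effector, 1.18 in KO naive and 1.08 in WT naive cells. Without the Trav11 copies it was 1.92, 2.28, 1.18 and 1.06. For J counts it was 1.4, 2.00, 1.20 and 1.04. Between a pair of libraries within a group, a median of 10.7 percentage points of V use differed in KO effector, 11.7 in WT effector, 6.81 in KO naive and 7.94 in WT naive cells. Between groups the median was 15.1 for KO effector and KO naive, 18.3 for WT effector and WT naive, 12.7 for KO effector and WT effector, and 7.54 for KO naive and WT naive libraries.

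In naive cells no V or J segment was called by share between KO and WT by edgeR, where 1.18% of all genes tested were called. At an unadjusted p under 0.05 there were 2 V and 1 J segments, and DESeq2 called 0. The log2 fold changes lay between -0.53 and 0.73 for V and between -0.63 and 1.21 for J segments. No V family was called either, with 1 at an unadjusted p under 0.05 and 0 called by DESeq2. For the difference between the KO effects in effector and naive cells, edgeR called no V or J segment, where 0.145% of all genes were called, with 6 V and 3 J segments at an unadjusted p under 0.05 and 0 called by DESeq2. Of the families, 1 had an unadjusted p under 0.05 in that difference, and edgeR and DESeq2 called 0.

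By level, which also reflects the amount of alpha chain mRNA, 8 V segments rose and 9 fell in KO effector against KO naive cells, and 6 J segments rose, where 31.6% of all genes rose and 26.8% fell. In WT, 5 V segments rose and 17 fell, and 4 J segments rose, where 30.2% and 25.9% of all genes did. Between KO and WT effector cells 2 V segments fell by level and no J segment was called, where 3.16% of all genes were called. There, 2 J segments had an unadjusted p under 0.05, and DESeq2 called 1 V or J segment. In naive cells edgeR called none by level (1.18% of all genes), with 1 V and 2 J segments at an unadjusted p under 0.05 and 0 called by DESeq2.

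The partners of the alpha chain were followed in a list of the receptor complex and coreceptors. Of 13 members tested, 5 rose and 5 fell in effector against naive cells in each genotype, where 31.6% of all genes rose and 26.8% fell in KO and 30.2% and 25.9% did in WT, with a median log2 fold change of -0.02 in KO and -0.06 in WT, against 0.0085 and 0.0064 for all genes. Between KO and WT effector cells 1 rose and 4 fell, where 3.16% of all genes were called in either direction, and in naive cells 1 fell, where 1.18% were called. Trat1, an adaptor of the receptor complex, had 68.7, 57.3 and 62.3 CPM in KO effector against 85.5, 94.4 and 92.3 CPM in WT effector libraries, without overlap (-0.53 ± 0.058, adjusted p = 6.9e-06). It had 112 to 119 CPM in KO naive against 137 to 141 CPM in WT naive libraries (-0.27 ± 0.054, adjusted p = 0.011). Trdc and 3 gamma chain constant regions, 4 of the 13, are also among the MAIT and gamma-delta markers. Cd247, the signalling zeta chain, rose in KO against WT effector cells (0.18 ± 0.046, adjusted p = 0.033). The gamma chain constant regions Trgc1 (-0.55 ± 0.10, adjusted p = 0.0031), Trgc2 (-0.53 ± 0.089, adjusted p = 0.0013) and Trgc4 (-0.55 ± 0.12, adjusted p = 0.018) fell there.

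V is joined to J in the thymus, before the stages sorted here. Rag1 and Rag2, the recombinase, had no count in any of the 12 libraries, and Ptcra, the partner of the beta chain before an alpha chain is made, had at most 0.0537 CPM. Dntt, the polymerase that adds untemplated bases at the junction, had 0.00 to 0.174 CPM in KO effector against 9.89 to 10.8 CPM in KO naive libraries (-6.34 ± 0.31, adjusted p = 1.0e-14). In WT it had 0.00 to 0.149 CPM in effector against 9.62 to 13.6 CPM in naive libraries (-6.98 ± 0.33, adjusted p = 6.3e-15). Of 13 members tested in the list of recombination and end joining, 3 rose and 4 fell in KO and 4 rose and 4 fell in WT effector against naive cells, with median log2 fold changes of -0.05 and 0.0012. These counts lie near the shares of all genes given for the same comparisons (31.6% higher and 26.8% lower in KO, 30.2% and 25.9% in WT). Hmgb2, a chromatin protein that assists RAG cutting, rose by 0.85 ± 0.061 (adjusted p = 3.7e-11) in KO and by 0.98 ± 0.062 (adjusted p = 4.2e-12) in WT. It fell in KO against WT effector cells (-0.31 ± 0.06, adjusted p = 0.0047), the 1 call of the list there, where 3.16% of all genes were called. Between KO and WT naive cells edgeR called 0 of the 13, where 1.18% of all genes were called.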

How the data were processed

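Naive and effector CD4+ T cells of WT and Rinl-KO mice were profiled by RNA sequencing, with 3 libraries in each of the 4 groups. The kit was TruSeq Stranded mRNA, per the labels' protocols. One deposited table holds raw counts per gene, and a second deposited table holds FPKM values of the same libraries, per the file headers. The submitters' processing notes list STAR, Picard and DESeq2 1.30.0, and as builds both mm10 and GRCm38, without saying what each did. For the counting itself, its strand setting and its handling of reads that match several genes, no statement is given in these sources. Columns name a genotype and a cell type but no replicate, so libraries are numbered 1 to 3 within a group in column order, as names only.

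Counts were fitted in R 4.3.3 with edgeR 4.0.16 (filterByExpr, TMM, robust quasi-likelihood, 1 coefficient per group). The level fit used TMM library sizes. The share fit used the log of summed V counts as offset for V segments and of summed J counts for J segments, and TMM sizes for all other genes. The family share fit replaced V segments by sums per family. P-values were adjusted over all 15905 genes tested, or 15830 in the family share fit, by the Benjamini-Hochberg method at 0.05. CPM are TMM-normalised. Shares carry Wilson 95% intervals, which cover counting error only. The fit was tested on simulated counts. The members and lists were chosen with earlier results of these data known.

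Named segments followed a rule. Trac, Trav11, Trav11d, Traj18, Trav1 and Traj33 were always named, with the 5 V segments, J segments and V families of largest mean share. Up to 6 called V and 6 called J segments per direction and contrast were added by p, where the higher group averaged at least 20 counts. For lists, up to 4 called genes per contrast were named by p. Traj8, Traj14, Trav14n-1, the families Trav8 and Trav15, and Trdc, Cd247 and the NKT markers fall outside the rule and were chosen after their values were seen. The alternatives were DESeq2's size factors, the DESeq2 1.42.0 Wald test, no filter, a mean of at least 20 counts, only the groups compared, each library left out, pseudogenes left out, V segments with a Dv name left out, limma 3.58.1 on log2 of FPKM plus 1 or 0.1, shares of FPKM and counts per Trac count. Leaving out the Trav11 copies and Traj18 was added after seeing the data. Sequences are GENCODE M21 transcripts.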

Additional observations from a re-analysis of the deposited data

How the results depend on the processing

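Between effector and naive cells, the number of called V and J segments together, and of families, stayed within 1.5 times under each alternative run, apart from 1. By level in WT, the DESeq2 Wald test called 17 segments where edgeR called 26. Calls between KO and WT effector cells were few and moved more. By share, 2 segments were called, and 1 with only the groups compared in the fit and 1 with the Trav11 copies and Traj18 left out, an alternative chosen after seeing the data. Leaving out each library in turn gave 1 to 3. By level, 2 were called, and 1 with the DESeq2 Wald test, 1 with only the groups compared, and 1 by limma on log2 of FPKM plus 1 and 1 on FPKM plus 0.1, where that segment was higher and not lower; each library left out gave 1 to 2. For families, 1 was called, and 0 with only the groups compared (3 at an unadjusted p under 0.05) and 0 without the Trav11 copies, and each library left out gave 0 to 1. The cause was not tested, except that without the Trav11 copies the called family is no longer present. Among the named shares of segments and families, no direction of a called value was reversed. Directions of single segments by level were not followed. Without the Trav11 copies, the Trav14 family kept its fall (-0.57 in KO and -0.57 in WT). Of 185 named values of segments and families, each in 1 comparison, 16 lost and 10 gained a call under at least 1 alternative. No paired analysis was possible because the columns carry no replicate number that matches the titles. J shares rest on 549 to 1193 counts per library, which limits what could be detected there.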
